A study of Homo sapiens with 2 samples.

Results

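Collagens are secreted or membrane-bound triple-helical proteins, and the human genome encodes their chains in genes named COL, a type number, A and a chain number. All 44 protein-coding genes of this naming pattern in the GRCh38 RefSeq gene table were taken, out of 20037 protein-coding genes on chromosomes 1 to 22, X and Y. The naming rule uses no measured value, but the family was picked for description with earlier results of these data known. The binding of RUNX1 at these genes was read from a list of 13591 ChIPseq peaks in MCF10A cells, a non-tumorigenic line of human mammary epithelium.

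Both libraries came from MCF10A cells with their RUNX1 deleted and with lentiviruses for inducible RUNX1, treated with doxycycline at 1 µg/ml for 24 hours. One was immunoprecipitated with a RUNX1 antibody and the other was input DNA, with 80338845 and 87410774 tags kept. RUNX1 was therefore supplied by an integrated vector rather than by its own gene, and the study made its deleted lines from single colonies. There was 1 library of each kind, so no value has a replicate, no test between conditions was made, and the errors given are counting errors. A peak list holds no transcript levels, so neither the identity of the line nor the expression of any collagen was checked.

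RUNX1 is a DNA-binding transcription factor that works with CBFB. Mammary epithelial cells rest on a basement membrane whose scaffold is a network of type IV collagen. Types I, III and V form the fibrils of the stroma beyond it and are made mainly by fibroblasts. Types VII and XVII fasten epithelia to the basement membrane and the stroma.

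Peaks were counted for a gene by their summits, from 5 kb before one end to 5 kb past the other. On this count 22 of the 44 collagen genes (50%) had a peak, with 50 different peaks among them. The same rule gave a peak to 24.8% of all protein-coding genes. Collagen genes are long, with a median of 145 kb against 24.1 kb for all protein-coding genes, and long genes hold a peak more often. When each collagen gene was given the percentage of its own length decile, the background was 43.9%, or 19.3 of 44 genes. With the 200 protein-coding genes nearest in length to each member in place of deciles, it was 42.9%. The 22 genes observed were thus close to what genes of these lengths showed, and much of the excess over 24.8% went with gene length. The remaining difference between 50% and 43.9% was not tested.

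**Figure D1:**
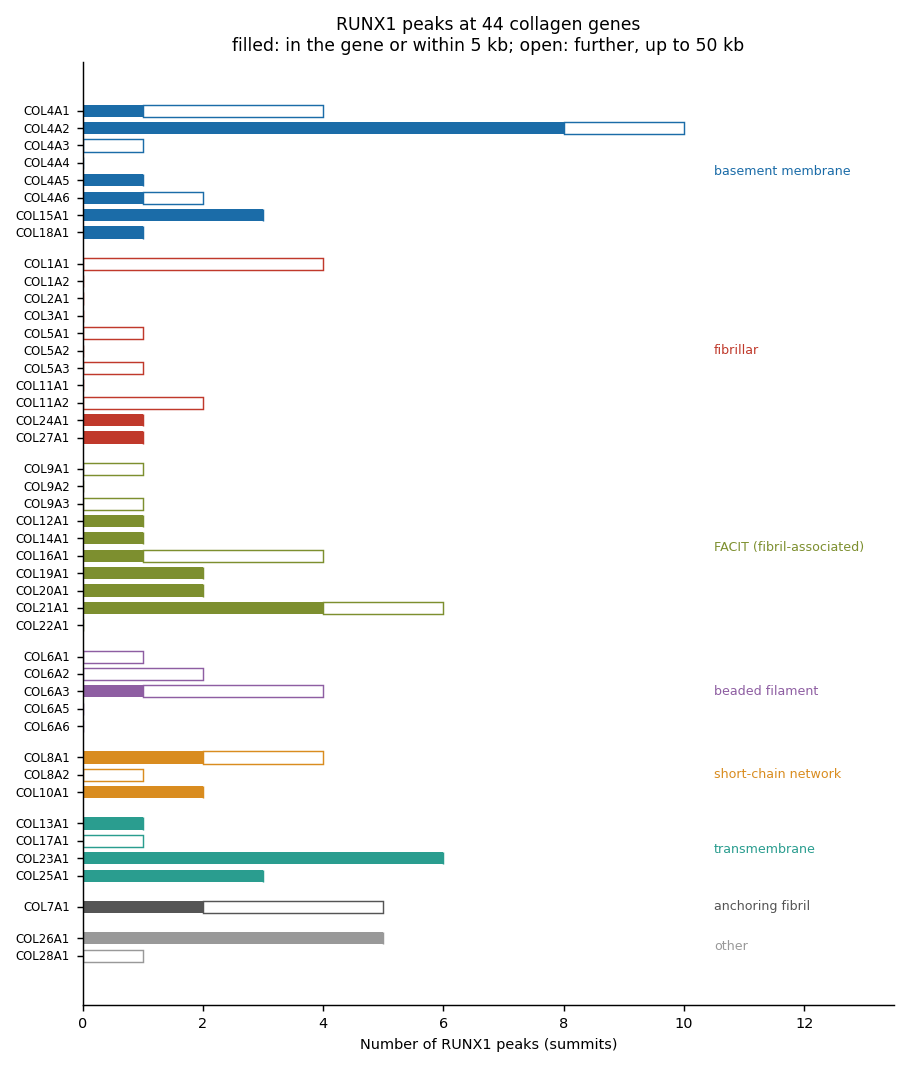
Number of RUNX1 peaks (horizontal axis) at each of the 44 collagen genes (vertical axis), grouped and coloured by class. Filled bars count summits in the gene or within 5 kb and open bars those further away, up to 50 kb. COL4A2 has 8 and COL23A1 6 within 5 kb, while 9 of the 11 fibrillar genes have none.

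Peaks were spread unevenly among the members. Of the 22 genes with a peak, 11 had 1, 5 had 2 and 6 had 3 or more. The latter were COL4A2 with 8, COL23A1 with 6, COL26A1 with 5, COL21A1 with 4, and COL15A1 and COL25A1 with 3 each. Over all protein-coding genes, 9.30% had 2 or more and 4.25% had 3 or more. Among the 200 genes nearest in length to COL21A1, 36 had as many or more. For COL23A1 this number was 8 and for COL26A1 it was 5. Length separated the members in part. Of 12 collagen genes shorter than 50 kb, 2 had a peak, COL7A1 and COL20A1. Of 26 longer than 100 kb, 17 did. Over all protein-coding genes the corresponding shares were 16.4% and 52.9%. In the decile of the longest genes, 14 of 21 collagen genes had a peak, beside 60.4% of all protein-coding genes in it, and 7 had none. The longest of these was COL5A2 at 409 kb, with COL22A1 at 326 kb and COL11A1 at 232 kb also without one. Among the 200 genes nearest in length to these 3, between 59 and 92 had none either.

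**Figure D2:**
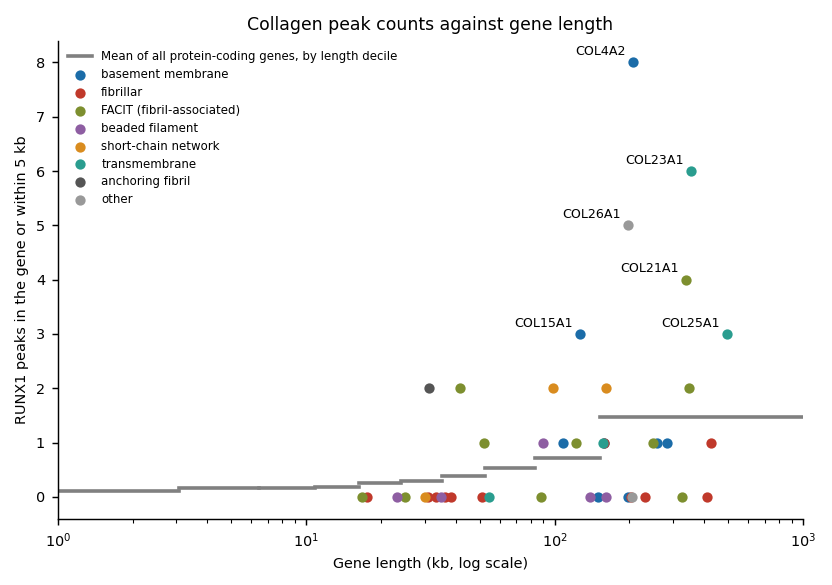
Peaks in the gene or within 5 kb (vertical axis) against gene length in kb (horizontal axis, log scale). Points are the 44 collagen genes coloured by class, some overlapping, and grey lines give the mean over all protein-coding genes in each length decile, clipped at the axis limits. COL4A2 with 8 peaks lies far above the mean of 1.47 in its decile.

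Basement membrane members were compared with fibrillar ones, a pair of classes also set with earlier results known. The basement membrane class was COL4A1 to COL4A6, the chains of the type IV network, with COL15A1 and COL18A1, which encode collagens of the basement membrane zone. A peak was found at 6 of these 8 genes (75%), beside a length-weighted background of 52.5%. The fibrillar class, whose chains assemble into fibrils, had a peak at 2 of 11 genes (18.2%), beside 40.2%. Basement membrane genes held 15 peaks in 1.49 Mb of gene body (10.1 per Mb), and fibrillar genes 2 in 1.64 Mb (1.22 per Mb). All protein-coding gene bodies together held 5.08 per Mb. Of the 15, 8 were in COL4A2, and without it the density was 5.46 per Mb. The count also depended on weak peaks. With only peaks of at least 5-fold enrichment, 3 of 8 basement membrane genes (COL4A1, COL4A2 and COL15A1) had a peak, beside a length-weighted 36.2%. With only peaks at an input level under 1.2 times the genome background there were again 3, but COL4A2, COL4A5 and COL4A6, beside 36.9%. COL4A2 is the gene common to both sets. Either way the fibrillar count stayed at 2 of 11, but its length-weighted background fell from 40.2% to 26.9% and 27.7%, respectively. The input level is the local background of MACS, and a high value means many tags in the input library. The difference between the classes was not tested, since head-to-head genes are not independent members and there is 1 ChIP library.

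COL4A2, which encodes the alpha-2 chain of type IV collagen, had the most peaks of any collagen gene. Its 8 peaks had pileups (ChIP tags, each extended, that overlap the summit) of 51, 10, 51, 19, 21, 13, 18 and 20 tags in order along the gene. All 8 lay inside the gene, between 78.3 and 141 kb after its start, where the input did not exceed the genome background of 2.20 tags. Only 34 protein-coding genes, COL4A2 included, had 8 or more. None of the 200 genes nearest to it in length did, the highest among them being 7.

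The tallest collagen peaks were a pair of 51 tags each (exact 95% Poisson interval 38.0 to 67.1) in COL4A2. They spanned 110385283 to 110385730 and 110385968 to 110386263 on chromosome 13, each with a 16.2-fold enrichment and a −log10 q of 45.2. A peak of 10 tags (4.80 to 18.4) lay between them, so the 3 covered 981 bp with the outer summits 425 bp apart. Of all peaks in the list, 1.07% were as high as 51 tags. When peaks within 1 kb were merged, COL4A2 had 5, and 8 of the 200 genes nearest in length had as many or more. Its standing by number of peaks therefore rested in part on close neighbours. Merging keeps the tallest height, so the height of the pair could not change. With at least 5-fold enrichment COL4A2 had 6 peaks, and with an input level under 1.2 times background 8. The highest among those 200 genes was 4 in either setting. At a q limit of 0.01 COL4A2 had 7, and 1 of the 200 had as many or more.

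The other basement membrane genes had fewer and mostly lower peaks. COL4A1, encoding the partner chain of COL4A2, had 1 peak of 32 tags (21.9 to 45.2), 49.7 kb after its start, and its input stood at 1.67 times background. COL15A1 had 29, 21 and 11 tags, all with a raised input of 1.25 to 1.67 times background. COL18A1, the source of the endostatin fragment, had 15 tags (8.40 to 24.7) over an input of 1.67 times background. COL4A5 and COL4A6, on chromosome X, had 1 peak of 12 tags each (6.20 to 21.0), below the lower quartile of 15 tags over all peaks. COL4A3 and COL4A4, which supply chains of the kidney glomerular basement membrane, had none. The nearest summit to COL4A3 lay 10.3 kb past its far end, with 31 tags and a 9.99-fold enrichment, and the nearest to COL4A4 lay 94.1 kb outside the gene. The part of the raised input in these counts was not tested.

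The 6 type IV genes stand as 3 head-to-head pairs, each pair with a short gap between its starts that serves as a shared promoter. These gaps are printed to show the stretches from which both genes of a pair are read, none of which held a summit. Sequences are RefSeq, GRCh38.p14, plus strand, in lower case. Capitals would mark a RUNX core, TGTGGT or TGCGGT on either strand (ACCACA or ACCGCA when read on this strand), and there are none. The first is the whole gap of 126 bases at chr13:110307158-110307283, the second the whole gap of 135 bases at chr2:227164489-227164623, and the third the 250 bases before COL4A5 at chrX:108439588-108439837, within a gap of 379 bases.
COL4A1/COL4A2: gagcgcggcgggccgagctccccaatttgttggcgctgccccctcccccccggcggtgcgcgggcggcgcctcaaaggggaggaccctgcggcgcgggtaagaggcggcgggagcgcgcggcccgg
COL4A4/COL4A3: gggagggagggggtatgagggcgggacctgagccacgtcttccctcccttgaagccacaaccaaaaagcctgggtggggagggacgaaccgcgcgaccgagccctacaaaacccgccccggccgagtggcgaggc
COL4A6/COL4A5: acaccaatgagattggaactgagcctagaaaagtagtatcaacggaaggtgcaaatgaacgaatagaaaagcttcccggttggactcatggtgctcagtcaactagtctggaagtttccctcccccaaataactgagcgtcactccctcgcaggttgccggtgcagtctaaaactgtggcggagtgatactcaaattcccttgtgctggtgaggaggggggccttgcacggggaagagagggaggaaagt

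Their GC content was 80.2%, 68.1% and 51.2%. The nearest summit was 49.7 kb from the first gap, 160 kb from the second and 7.67 kb from the third. The COL4A1 and COL4A2 pair held 9 summits in all, the COL4A6 and COL4A5 pair 2 and the COL4A4 and COL4A3 pair 0. Type IV genes thus ranged from the collagen gene with the most peaks to a pair with none.

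**Figure D3:**
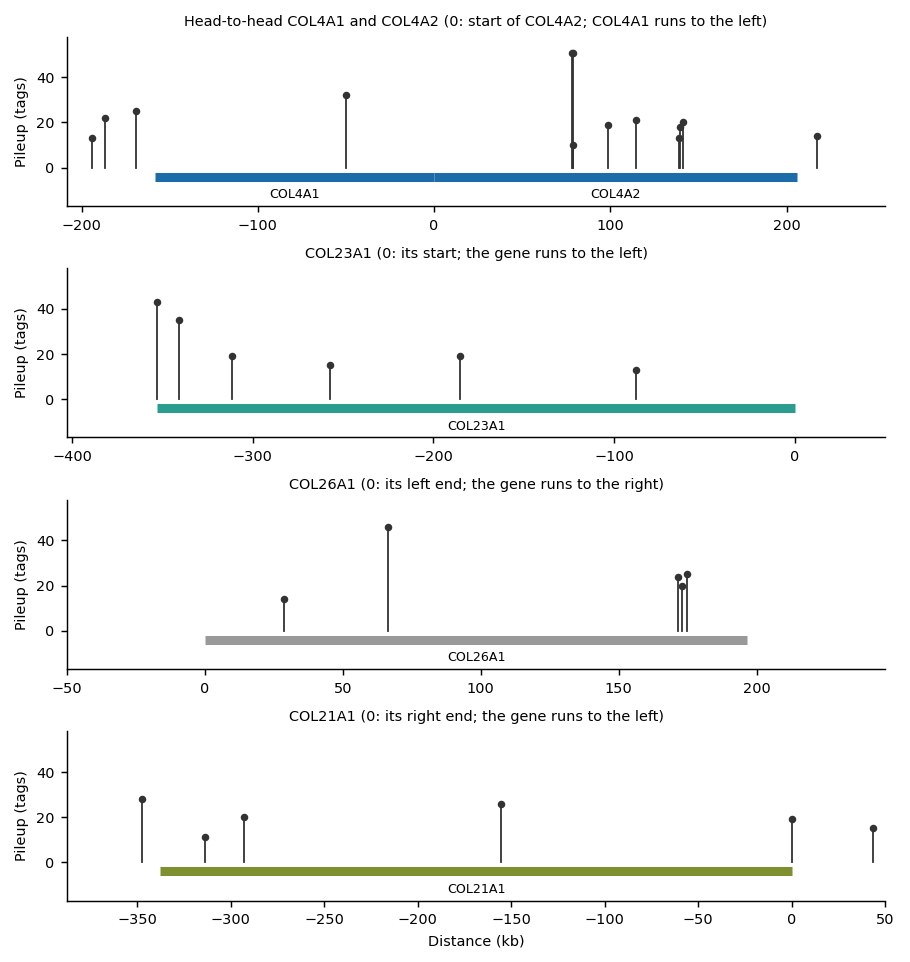
Pileup in tags (vertical axis) of each peak within 50 kb of COL4A1 and COL4A2, COL23A1, COL26A1 and COL21A1 by distance in kb (horizontal axis) from the point named above each panel. Coloured bars are the genes. In COL4A2 the pair of 51 tags stands 78.3 and 78.7 kb after the start, and in COL23A1 the tallest peak is at the far end of the gene.

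The genes that anchor epithelia differed from each other. COL7A1, whose product forms the anchoring fibrils under the basement membrane, had 2 peaks although it is only 31.3 kb long. The taller, at 48598850 to 48599181 on chromosome 3, had 25 tags (16.2 to 36.9) and lay 3.66 kb before the start, with an input level of 1.30 times background. The other had 14 tags and lay inside the gene, 2.25 kb from its end. COL17A1, encoding the hemidesmosome collagen of basal epithelial cells, had none in the gene or within 5 kb. Its nearest peak was 35.6 kb before the start, inside SFR1, with 22 tags and a 7.18-fold enrichment.

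The other transmembrane collagens had peaks, which made 3 of 4 genes in the class, beside a length-weighted 53.4%. COL23A1 had 43, 35, 19, 15, 19 and 13 tags from its far end towards its start. The tallest, with 43 tags (31.1 to 57.9) and a 12.3-fold enrichment at 178237250 to 178237764 on chromosome 5, had its summit 35 bp past the end of the gene, 353 kb from the start. The input level under the 6 peaks was 1.18 to 2.09 times background, and only 1 was under 1.2 times. At least 5-fold enrichment was reached by 2 of the 6. COL25A1, the longest collagen gene at 494 kb, had 18, 28 and 28 tags, and COL13A1 had 15 tags. The tallest of COL23A1 was higher than every peak of the other transmembrane genes, but its counting interval overlapped that of the 28-tag peaks (18.6 to 40.5).

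The fibrillar genes with a peak were COL24A1 and COL27A1, chains found in cartilage and bone. COL24A1 had 16 tags (9.15 to 26.0) at 85850296 to 85850392 on chromosome 1, and COL27A1 had 20 tags (12.2 to 30.9) at 114283059 to 114283257 on chromosome 9. Both had an input level at the genome background and lay 306 and 128 kb after the start. The other 9, COL1A1, COL1A2, COL2A1, COL3A1, COL5A1, COL5A2, COL5A3, COL11A1 and COL11A2, had none within 5 kb. These include both chains of type I collagen, the main protein of tendon and bone, and the chain of type III collagen. The length-weighted background of these 9 was 35.7%, or 3.21 genes. They were grouped after their counts were seen, by having no peak, so this background cannot be compared with their count. For the whole class the background was 4.42 genes, beside 2 of 11 with a peak.

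Within 50 kb, 4 of those 9 gained peaks. COL1A1 had 4, at 20.4 to 32.8 kb, with pileups of 20 to 24 tags. COL11A2 had 2, the nearer 12.2 kb before its start and inside HSD17B8. COL5A1 had 1 of 24 tags, 39.2 kb before its start, and COL5A3 1 of 21 tags. No summit lay within 50 kb of COL1A2, COL2A1, COL3A1, COL5A2 or COL11A1, with the nearest 62.6 to 448 kb away. COL3A1 and COL5A2 are neighbours 19.2 kb apart, so their counts share a region. Over the class the count rose from 2 to 6 of 11, beside 59.7% of genes of like length.

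Fibril-associated collagens, which sit on the surface of fibrils or link them to other matrix, had a peak at 6 of 10 genes beside a length-weighted 41.3%. COL21A1 had 11, 20, 26 and 19 tags. The last of these had its summit 256 bp beyond the right end of the gene, on the side where transcription begins, and at -147 kb from the start listed for it. COL19A1 had 17 tags 4.33 kb before its start and 28 tags inside. COL20A1 had 27 and 24 tags in 41.6 kb. COL14A1 had 31 tags (21.1 to 44) and COL16A1 22 tags (13.8 to 33.3), both over an input of 2.09 times background, and COL12A1 had 17 tags. The COL16A1 peak, 1.73 kb inside the gene, was the closest to a listed collagen start. COL9A1, COL9A2, COL9A3 and COL22A1 had none. Within 50 kb COL9A3 gained a peak of 18 tags at 23.9 kb, while the nearest summits to COL9A2 and COL22A1 were 133 and 737 kb away.

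**Figure D4:**
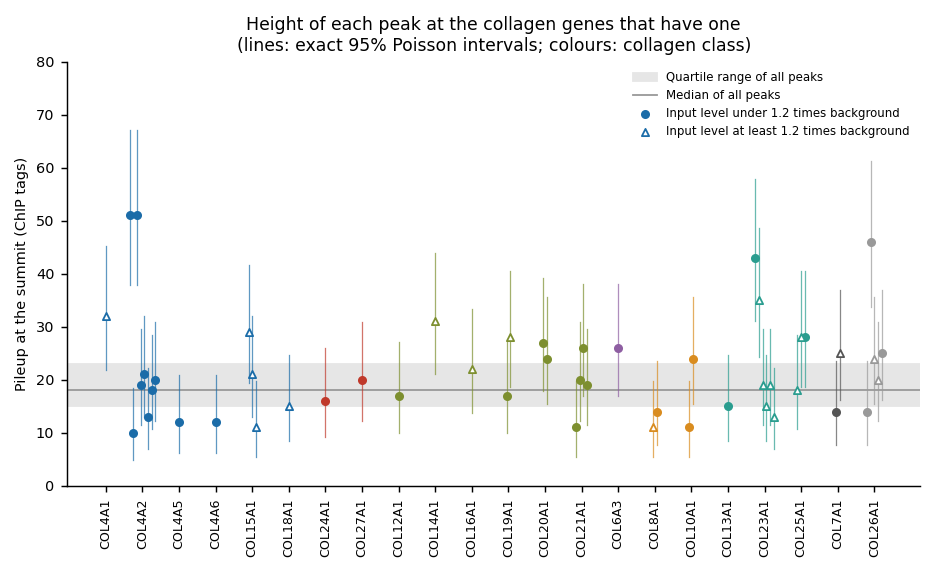
Pileup at the summit in ChIP tags (vertical axis) of the 50 peaks at the 22 collagen genes with a peak (horizontal axis), with exact 95% Poisson intervals as lines and colours by class. Open triangles are peaks with an input level of at least 1.2 times background, circles the others, and the grey line and band give the median of 18 and quartiles of 15 and 23 over all peaks. The pair of 51 tags in COL4A2, 46 in COL26A1 and 43 in COL23A1 stand above the rest.

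The beaded-filament collagens of type VI, which form microfibrils around cells, had a peak at 1 of 5 genes, beside a length-weighted 35.7%. It was in COL6A3, with 26 tags (17.0 to 38.1) and an 8.43-fold enrichment. COL6A1, COL6A2, COL6A5 and COL6A6 had none, and the nearest summits to the last 2 were 197 and 350 kb away. A peak of 16 tags between COL6A1 and COL6A2 lay within 50 kb of both, and COL6A2 had another of 15 tags at 26.5 kb. Of the 3 short-chain network collagens, 2 had a peak, beside a length-weighted 40.2%. COL10A1, known from hypertrophic cartilage, had 11 and 24 tags. Both of its summits also lay inside NT5DC1, so they cannot be assigned to COL10A1 alone. COL8A1 had 11 and 14 tags, and COL8A2 had none, its nearest peak of 15 tags lying 40.6 kb away. COL26A1 had 14, 46, 24, 20 and 25 tags. Its tallest, at 101428592 to 101428776 on chromosome 7 with 46 tags (33.7 to 61.4), a 14.7-fold enrichment and an input at background, was the third highest among collagen peaks. The last 3 of its summits lay within 3.48 kb, over inputs of 1.67, 2.50 and 1 times background. COL28A1, at 206 kb about as long as COL4A2, had none, and its nearest peak of 18 tags lay 19.1 kb away.

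Outside the 5 kb windows, 12 more collagen genes had a summit within 50 kb, bringing the total to 34 of 44 (77.3%) with 83 different peaks. The share was 52.1% of all protein-coding genes and 61.6% when weighted by length. The tallest of the added peaks had 44 tags and a 14.1-fold enrichment at 70312168 to 70312482 on chromosome 6, 9.22 kb outside COL9A1, 29.1 kb before its listed start and in no protein-coding gene. The next had 39 tags and lay inside HCRTR1, 24.7 kb from COL16A1. The gap between collagen genes and their length background was wider at this distance, at 34 genes beside 27.1, than within 5 kb, at 22 beside 19.3. Many of these windows hold other genes, and which gene a distal peak concerns was not tested.

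Most collagen peaks lay inside the genes. Of the 50 within 5 kb, 46 had their summit inside the gene. With a median gene length of 145 kb, the 5 kb flanks are a small part of most windows. The same share was not computed for other genes of like length. A start site and strand were listed for 32 of the 44 members, and 45 peaks belonged to these. None lay within 1 kb of the listed start and 3 lay within 5 kb. Only 1 start was used per gene. The COL21A1 peak 256 bp beyond the end of its gene therefore counted as -147 kb from the start. Genes without a listed start, such as COL8A1, were left out. Of 15842 protein-coding genes with a listed start, 4.18% had a summit within 1 kb, compared with 0 of the 32 collagen genes. Within 5 kb the shares were close, at 1425 of the 15842 (8.995%) and 3 of 32 (9.38%). The 3 were COL16A1, COL7A1 and COL19A1. Within 10 kb the collagen share was the higher, at 7 of 32 (21.9%) beside 13.8%. Among those 7, COL4A5 and COL4A6 were counted for the same summit. Peaks downstream of a start lay at a median of 112 kb. The gene table carries no exons, so whether a summit is in an exon or an intron is not given here.

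The RUNX core TGTGGT or TGCGGT, on either strand, occurred in the 250 bases before the start of 1 of the 32 collagen genes (3.12%). It was COL4A4, with 2 matches, neither in the gap printed above. Over 15842 protein-coding genes the share was 15.3%. COL4A4 had no peak within 50 kb, and none of the 3 genes with a summit within 5 kb of the start held the core in these 250 bases. Those summits lay outside the bases searched, and the sequence under the peaks was not examined.

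The collagen peaks had somewhat higher medians than the list but not its highest values. They ran from 10 to 51 tags and from 3.19 to 16.2-fold, whereas all peaks ran from 10 to 148 tags and from 1.48 to 46.5-fold. Their median pileup was 20 tags (quartiles 15 and 26) beside 18 for all peaks, their median fold enrichment 5.79 (4.15 to 7.52) beside 5.06, and their median −log10 q 8.44 beside 5.90. Without the 8 peaks of COL4A2 the medians were 20 tags, 5.62-fold and 7.56. A fold enrichment of at least 10 was reached by 4 of the 50 (8%) beside 3.82% of all peaks, and these were the pair in COL4A2 and the tallest peaks of COL26A1 and COL23A1. The input level stood at the genome background, within 1%, in 27 of the 50 (54%), beside 39.5% of all peaks. These 27 included all 8 peaks of COL4A2. Outside that gene the median input level was 1.08 times background, beside 1.11 for all peaks. The input level was at least 1.2 times background in 19 of the 50, spread over 11 genes, with a highest value of 2.50 times in COL26A1.

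Collagen chains are hydroxylated, glycosylated, trimmed and cross-linked by a shared set of enzymes. Of 30 genes for these steps, 11 had a peak (36.7%), beside 30.3% when weighted by length. Among the hydroxylases, P4HA3, a prolyl 4-hydroxylase subunit, had the highest with 31 tags (21.1 to 44), followed by P3H2, a prolyl 3-hydroxylase, with 25 and PLOD2, a lysyl hydroxylase, with 14. COLGALT2, a collagen galactosyltransferase, had 23 tags. The cross-linking enzymes LOXL2, LOXL1 and LOXL3 had best peaks of 24, 22 and 13 tags. That of LOXL3 lay at -0.244 kb from its listed start, closer than any collagen peak to a listed collagen start. It also lay inside the neighbouring DOK1. PXDN, the peroxidase that cross-links type IV collagen, had 14 tags. The procollagen proteases ADAMTS14 and ADAMTS2, and TLL2 of the tolloid family, had 16, 13 and 19. The other 19 genes of the list had no peak within 5 kb.

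Collagen receptors with a peak were 4 of 10, beside a length-weighted 34.3%. DDR2, a receptor tyrosine kinase for fibrillar collagen, had 2 peaks, the best of 29 tags (19.4 to 41.6). ITGA2 and ITGB1, the subunits of the main epithelial collagen integrin, had 13 and 12 tags, 4.09 and 3.94 kb after their starts. ITGA10 had 19 tags over an input of 2.92 times background. Of 7 collagenase and gelatinase genes, 2 had a peak beside 15.2%. MMP9 had 2, the best of 12 tags, and MMP14, which encodes a membrane-bound collagenase, 1 of 18 tags over an input of 2.50 times background. The shares of these lists were within 2 genes of their length-weighted backgrounds.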

How the data were processed

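RUNX1 ChIPseq of engineered MCF10A cells comprised 1 ChIP library and 1 input library, assigned by the antibody in the labels. The authors deposited 1 peak list, made with MACS 2.1.2 at a q limit of 0.05 (tags of 54 bp extended to 74 bp, 1 per position and strand). Bowtie2 and hg38 are named in the submitters' processing notes, without a version. In the deposited list, pileup is a signal in tags at the summit. The authors' fold enrichment is a ratio to local background with 1 added to each. The deposited q is a −log10 value, and the p column was not used here. All 3 kinds are the authors' values for each peak, with no replicate error.

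Gene intervals and listed starts came from RefSeq tables of GRCh38.p14, a patch release of the deposited build with the same main chromosome coordinates. All 44 collagen symbols and the 30, 10 and 7 of the pathway lists matched. The input level was recovered from pileup and fold enrichment, with the genome background computed from kept tags, extension and genome size. Summits were counted per gene with Python 3.11.15 and pandas 2.3.3, by code tested on simulated positions. Length-weighted backgrounds average, over the members, the percentage of protein-coding genes with a peak in the same of 10 length deciles. Poisson intervals cover counting error only, and tags carried no molecular identifiers.

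The members, classes and lists were chosen with earlier results of these data known. All 44 members are named, pathway genes where they had a peak. Alternatives were gene bodies alone, 50 kb on either side, overlap of any base, a q limit of 0.01, at least 5-fold enrichment, merging within 1 kb and an input level under 1.2 times background. Their use for single genes was chosen after seeing the data. No test was run, since 1 library of each kind has no replicate.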

Additional observations from a re-analysis of the deposited data

How the results depend on the processing

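Of 58 alternatives over 10 results, 46 stayed within 1.5 times the value given or, for the median fold enrichment, within its spread over peaks. With 50 kb on either side the collagen genes with a peak rose from 22 to 34, the different peaks from 50 to 83 and the fibrillar genes from 2 to 6, by construction since windows were wider. With at least 5-fold enrichment there were 31 peaks and 3 basement membrane genes, and with an input level under 1.2 times background again 31 and 3, since peaks were dropped. Among single genes, alternatives chosen after seeing the data, COL4A2 fell from 8 to 5 peaks on merging. COL23A1 fell from 6 to 2 with at least 5-fold enrichment and to 1 with the input limit, and COL26A1 from 5 to 3 under either. Type IV alone as the basement membrane class gave 4 of 6 genes, beside a length-weighted 56.9%. With COL7A1 and COL17A1 added to the class it was 7 of 10, for which no length-weighted background is given. No paired analysis was possible because the ChIP and the input had 1 library each, with no replicate number. Heights of 10 to 15 tags have counting intervals that reach down to 4.80 tags, at the peak of 10 tags in COL4A2. For the highest peaks of COL4A5 and COL4A6 the interval reaches down to 6.20 tags. For COL8A1 it reaches 7.65, and for COL18A1 and COL13A1 8.40. This limits what can be said of these 5 genes.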
